A study of Mus musculus with 6 samples.

Results

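The 37 genes of the mouse mitochondrial genome were followed in monocytes sorted from melanoma tumours, in 3 libraries after lipid nanoparticles (LNP) that carried mRNA for GFP, here LNP-GFP, and 3 after particles that carried Gsdme mRNA, here LNP-Gsdme. They are all rows of the deposited table whose gene name starts with mt-, 37 of 56980 rows. Membership went by name, but these genes were taken up with earlier results of these data known. They comprise 13 protein-coding genes, 2 ribosomal RNA genes and 22 transfer RNA genes, 28 on the plus strand and 9 on the minus strand of the reference. Of the 37, 22 passed the filter on low counts and were tested: all 13 protein-coding genes, both rRNA genes and 7 tRNA genes. In LNP-Gsdme 14 of these 22 transcripts fell, none rose, and the remaining 8 did not pass the test. Of all 16010 genes tested, 5.32% fell and 6.30% rose. The count of 14 depends on the libraries and the fit. It was 4 without the third LNP-GFP library and 6 with the replicate number as a block. The 2 rRNAs had the smallest log2 fold changes of the 22, and those of complex IV transcripts (-0.71 to -0.49) were nearer to 0 than those of complex I (-1.11 to -0.82).

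All 6 libraries came from cells of 1 gate, CD11b+ Ly6Chi Ly6G-, taken from tumours grown from B16F10, a mouse melanoma line (B16F10-mCherry in the series' text), in mice whose genotype is labelled WT. Gsdme encodes gasdermin E, a pore-forming protein that caspases can cleave to drive lytic cell death, and GFP mRNA in the same kind of particle is the control. The mRNA was given in situ according to the series' title, and the labels name no strain, sex, age, dose or time. They do not say whether the 3 libraries of a group came from separate animals or from pools, so p-values here measure only the spread between these libraries, which may be technical.

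The mitochondrial genome is a small circle of DNA inside the organelle. One RNA polymerase copies each strand into long precursors, which are cut at the tRNAs that lie between the other genes, and the released rRNAs and mRNAs then differ in stability. Its proteins are core subunits of respiratory complexes I, III, IV and V, its rRNAs and tRNAs serve the organelle's own ribosomes, and every other mitochondrial protein is made from nuclear genes. In myeloid cells, respiration shifts with activation, and the share of mitochondrial reads in a library is also widely used as a mark of cell and RNA quality.

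Total counts ranged from 20233559 to 22932095 for LNP-GFP libraries and from 15991826 to 18751784 for LNP-Gsdme libraries. LNP-GFP 3 stands apart: it was the middle library of its group for 68.6% of 9207 genes with a mean level of at least 10 CPM (counts scaled to a common library total), and for 14 of the 22 tested mitochondrial genes, whereas LNP-GFP 1 was in the middle for 15.3% of those genes and LNP-GFP 2 for 16.2%. Whether it is independent of the other 2 was not tested; if it is not, LNP-GFP has fewer than 3 independent libraries and the p-values are too small. Without LNP-GFP 3, 88 genes were called over the whole table in place of 1859. Of the mitochondrial genes, 4 (mt-Nd1, mt-Nd3, mt-Nd4l and mt-Nd5) were called in place of 14. Such a loss was not particular to LNP-GFP 3: 153 genes were called without LNP-Gsdme 1 and 187 without LNP-Gsdme 2. Without LNP-GFP 1, LNP-GFP 2 or LNP-Gsdme 3 the count was 2841, 947 or 2131. In mt-Atp6 alone, LNP-Gsdme 1 and 2 lay far below LNP-Gsdme 3, and the mitochondrial share and the class and strand ratios are given with and without this gene. Of the genes that define the gate, Itgam (CD11b) was at 339 to 632 CPM, Ly6g had 0 to 11 counts per library, and Ly6c2 was at 209 to 261 CPM after LNP-GFP and 1357 to 1861 CPM after LNP-Gsdme. Counts on Gsdme, whatever their source, were at 2.79 to 4.35 CPM after LNP-GFP and 2.69 to 3.39 CPM after LNP-Gsdme, so this transcript does not separate the labels.

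Some genes of this circle overlap, and some have near-identical copies in the nuclear genome, which limits what a count for each can mean. Sequences are from GENCODE release M21, whose mitochondrial positions equal those of the deposited GRCm39 table for 37 of 37 genes, and are printed 5′ to 3′. The gene of mt-Atp8, a small subunit of ATP synthase, lies at MT:7766-7969 on the plus strand and shares its last 43 bases, in capitals, with mt-Atp6 at MT:7927-8607.
mt-Atp8: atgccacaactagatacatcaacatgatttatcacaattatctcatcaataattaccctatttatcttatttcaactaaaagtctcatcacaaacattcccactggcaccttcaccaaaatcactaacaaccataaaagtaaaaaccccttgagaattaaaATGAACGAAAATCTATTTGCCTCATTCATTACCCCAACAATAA
The start of mt-Nd3 (MT:9459-9518, plus strand) is shown beside the matching stretch of Gm28438, its copy on chromosome 1, because these show how little separates a copy from its source. The only difference over 345 aligned bases is T3C, with the base of mt-Nd3 first and positions counted from 1 at its 5′ end, and it is in capitals.
mt-Nd3: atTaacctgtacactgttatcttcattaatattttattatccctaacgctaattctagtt
Gm28438: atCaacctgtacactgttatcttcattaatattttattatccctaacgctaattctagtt
In all, 9 nuclear copies were in the table, 7 on chromosome 1 between positions 24650616 and 24655278 (GRCm39) and 2 on chromosome 2. Over their aligned length 5 of them carried no mismatch: Gm10925 (mt-Atp6, 678 bases), Gm28437 (mt-Co3, 783), Gm28661 (mt-Co2, 681), Gm10222 (mt-Nd4l, 294) and Gm28439 (mt-Nd4, 876). Of the stretches of 100 bases in each gene, 99.5% in mt-Atp6 and in mt-Co2, 99.9% in mt-Co3, 97.6% in mt-Nd3 and 98.5% in mt-Nd4l also occurred in a nuclear transcript, against 60.8% in mt-Nd4, 30.8% in mt-Co1 and 3.19% in mt-Nd2. For mt-Nd1, mt-Nd5, mt-Nd6, mt-Cytb, mt-Atp8 and both rRNAs the share was 0. How the counting split reads between a gene and an identical copy was not given in the sources used here.

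The tested tRNAs are short, and 7 of them carried enough counts to be tested. They are mt-Tl1 (leucine, MT:2676-2750), mt-Tm (methionine, MT:3845-3913), mt-Tw (tryptophan, MT:4950-5016), mt-Tk (lysine, MT:7700-7764), mt-Tg (glycine, MT:9391-9458), mt-Tr (arginine, MT:9808-9875) and mt-Tt (threonine, MT:15289-15355), all on the plus strand. Capitals in mt-Tw mark the bases shared with the end of mt-Nd2.
mt-Tl1: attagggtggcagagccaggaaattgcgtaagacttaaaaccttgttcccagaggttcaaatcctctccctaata
mt-Tm: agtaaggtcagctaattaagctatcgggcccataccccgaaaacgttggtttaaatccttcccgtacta
mt-Tw: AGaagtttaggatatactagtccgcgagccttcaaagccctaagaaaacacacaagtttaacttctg
mt-Tk: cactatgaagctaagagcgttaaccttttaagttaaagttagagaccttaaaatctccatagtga
mt-Tg: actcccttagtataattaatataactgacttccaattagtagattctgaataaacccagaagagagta
mt-Tr: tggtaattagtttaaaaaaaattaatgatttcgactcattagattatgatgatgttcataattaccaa
mt-Tt: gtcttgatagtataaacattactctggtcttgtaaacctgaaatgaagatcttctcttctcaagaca
Each is shorter than 100 bases and adjoins a longer gene, as mt-Tl1 adjoins mt-Nd1 and mt-Tm adjoins mt-Nd2, and how reads that span such a border were counted was not given in the sources used here.

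The mitochondrial genes together took a smaller share of counts in LNP-Gsdme. They held 2.02, 2.41 and 2.17% of all gene counts in LNP-GFP 1 to 3 and 1.30, 1.32 and 1.61% in LNP-Gsdme 1 to 3. The groups did not overlap, and their means were 2.20 ± 0.20% and 1.41 ± 0.17% (SD, n = 3 each; p = 0.1 by a two-sided exact permutation test, the smallest that 3 libraries against 3 allow). The protein-coding genes went from 1.85 ± 0.16% to 1.12 ± 0.14% of all counts. The rRNA genes were at 0.317, 0.387 and 0.339% in LNP-GFP and 0.300, 0.248 and 0.327% in LNP-Gsdme, and these ranges overlapped (exact permutation p = 0.2). In bulk RNA from a sorted fraction, fewer cells of a type and less RNA per cell cannot be told apart.

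**Figure D1:**
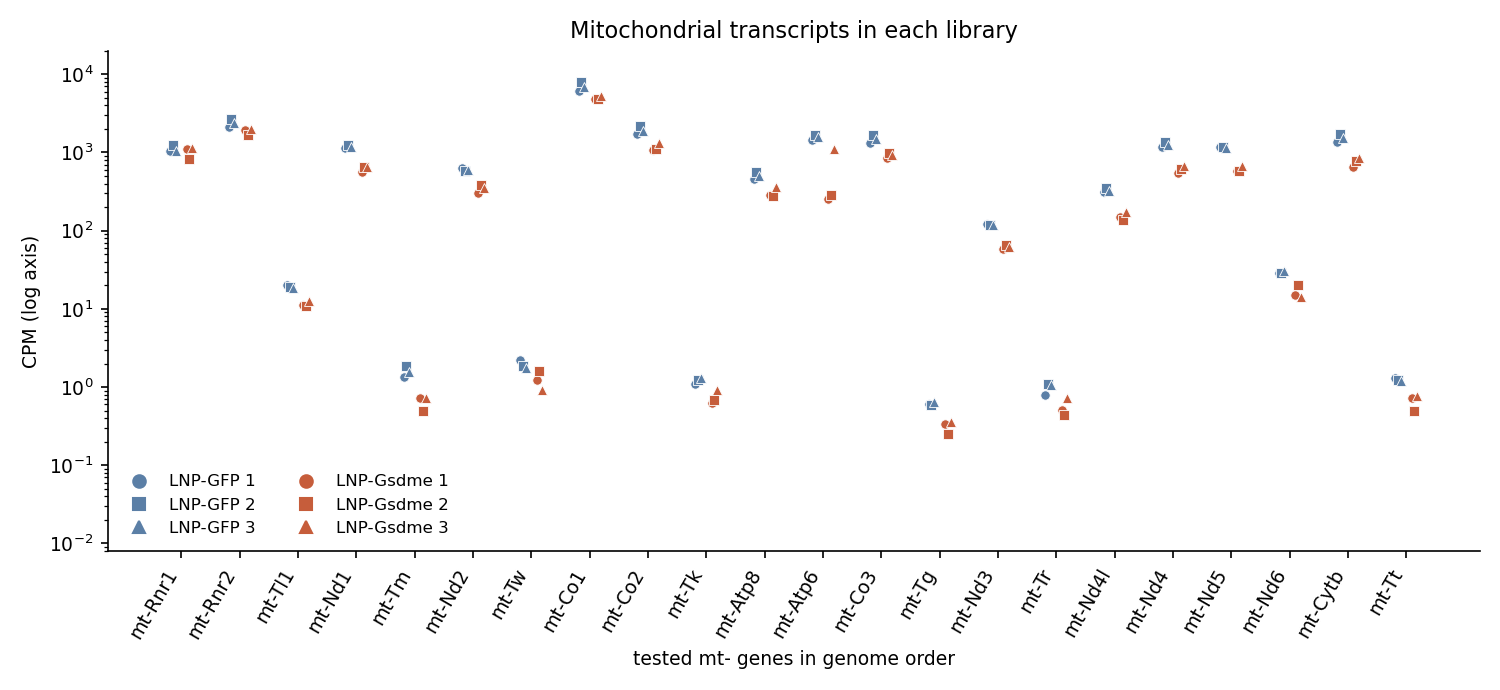
Level of each of the 22 tested mitochondrial transcripts in each library, in CPM on a log axis, in genome order. Blue symbols are LNP-GFP libraries and orange symbols LNP-Gsdme libraries; for mt-Rnr1 the 2 colours overlap, and for mt-Atp6 LNP-Gsdme 3 (1095.5 CPM) lies well above LNP-Gsdme 1 (253 CPM) and LNP-Gsdme 2 (283 CPM).

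Per gene, levels were compared as CPM scaled by trimmed-mean (TMM) factors, with edgeR's quasi-likelihood test over all 16010 tested genes and Benjamini-Hochberg adjustment, and a gene was called at an adjusted p below 0.05. By this rule 5.32% of all tested genes fell and 6.30% rose (11.6% in both directions), against 14 of the 22 mitochondrial genes that fell. Every one of the 22 had a log2 fold change below 0, so none was higher at any p. The median log2 fold change (LNP-Gsdme over LNP-GFP) was -0.83 over the 22 genes and -0.01 over all genes tested. The 3 values of LNP-Gsdme all lay below the 3 of LNP-GFP for 21 of the 22, the exception being mt-Rnr1, and for 18.2% of all genes tested, while they all lay above for 0 of the 22 and 19.6% of all genes tested.

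The 7 subunits of complex I, which takes electrons from NADH, all fell, with log2 fold changes from -1.11 to -0.82 and a median of -0.93. Transcripts of mt-Nd1, in the membrane arm of the complex, were at 1151, 1249 and 1163 CPM in LNP-GFP and at 567, 652 and 656 CPM in LNP-Gsdme. Those of mt-Nd4, another subunit of that arm, were at 1172, 1350 and 1253 CPM against 544, 621 and 676 CPM. The small subunit mt-Nd3 was at 120.0, 119.8 and 117 CPM against 58.8, 65.4 and 61.4 CPM. In each of these genes the libraries of a group lay close together and the groups far apart, with a fitted fold (LNP-Gsdme over LNP-GFP) of 0.526 for mt-Nd1, 0.488 for mt-Nd4 and 0.520 for mt-Nd3. By edgeR the log2 fold change was -0.93 ± 0.09 for mt-Nd1 (SE, n = 3 per group; adjusted p = 0.00557) and -1.04 ± 0.10 for mt-Nd4 (adjusted p = 0.00609). For mt-Nd4l, whose end overlaps mt-Nd4 by 7 bases, edgeR gave -1.11 ± 0.11 (adjusted p = 0.00584), the lowest of the 7. The ratio of mt-Nd4 to mt-Nd4l counts was 3.70, 3.85 and 3.94 in LNP-GFP and 3.64, 4.604 and 3.91 in LNP-Gsdme, so these adjoining genes kept overlapping ratios (exact permutation p = 0.8).

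The large subunit mt-Nd5, a proton-pumping subunit at the far end of the membrane arm, was at 1178, 1167 and 1148 CPM in LNP-GFP and 586, 587 and 667 CPM in LNP-Gsdme. The membrane subunit mt-Nd2 was at 639, 588 and 599.9 CPM against 302, 380.0 and 352 CPM. In edgeR's fit mt-Nd2 changed by -0.82 ± 0.10 on the log2 scale (adjusted p = 0.00991), the smallest change among the subunits of complex I. Calls for mt-Nd2 and mt-Nd4 were lost in edgeR without LNP-GFP 3 (adjusted p = 0.0694 and 0.0533). That of mt-Nd2 was also lost with the replicate number as a block (edgeR adjusted p = 0.0588). In contrast, mt-Nd1, mt-Nd3, mt-Nd4l and mt-Nd5 were called in each of 17 alternative analyses.

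The only subunit of complex III made from this genome, cytochrome b (mt-Cytb), was at 1376, 1731 and 1526 CPM in LNP-GFP and at 647, 768 and 845 CPM in LNP-Gsdme. The highest LNP-Gsdme library was well under the lowest LNP-GFP library. The log2 fold change by edgeR was -1.04 ± 0.13 (adjusted p = 0.0104). That call was lost in edgeR when LNP-GFP 3 (adjusted p = 0.0723) or LNP-Gsdme 2 (0.0571) was left out.

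The 3 subunits of complex IV (cytochrome c oxidase) also fell, with log2 fold changes from -0.71 to -0.49. Transcripts of mt-Co1, the subunit that holds the oxygen-reducing site, were at 6039, 7990 and 6888 CPM in LNP-GFP and 4819, 4811 and 5222 CPM in LNP-Gsdme. The LNP-GFP libraries spread over a wider range than the gap between the groups. The log2 fold change of mt-Co1 by edgeR was -0.49 ± 0.12 (adjusted p = 0.0426), the smallest among protein-coding genes. Transcripts of mt-Co2, the subunit that accepts electrons from cytochrome c, were at 1706, 2156 and 1882 CPM against 1078, 1123 and 1315 CPM, and edgeR gave -0.71 ± 0.12 (adjusted p = 0.0214). Transcripts of mt-Co3, the third core subunit, were at 1310.1, 1693 and 1489 CPM against 851, 997 and 921 CPM, with -0.70 ± 0.12 (edgeR adjusted p = 0.0210). All 3 calls were lost in edgeR when LNP-GFP 3, LNP-Gsdme 1 or LNP-Gsdme 2 was left out (adjusted p = 0.0691 to 0.152). The call of mt-Co1 was also lost without LNP-GFP 2 (edgeR adjusted p = 0.0815) or LNP-Gsdme 3 (0.0549). With the replicate number as a block, mt-Co1, mt-Co2 and mt-Co3 were not called (edgeR adjusted p = 0.0955, 0.0656 and 0.0552).

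Both subunits of complex V (ATP synthase) in this genome were lower in LNP-Gsdme, and mt-Atp8 fell. It was at 453, 558 and 497 CPM in LNP-GFP and 284, 278 and 358 CPM in LNP-Gsdme, a log2 fold change by edgeR of -0.71 ± 0.13 (adjusted p = 0.0240). That call was lost in edgeR without LNP-GFP 2 (adjusted p = 0.0579), LNP-GFP 3 (0.114), LNP-Gsdme 1 (0.102) or LNP-Gsdme 2 (0.0983). It was also lost with the replicate number as a block (edgeR adjusted p = 0.0689).

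The neighbouring gene mt-Atp6 (ENSMUSG00000064357), which encodes the membrane subunit that lines the proton path, behaved unlike any other member. It was at 1464, 1696 and 1582 CPM in LNP-GFP, and in LNP-Gsdme at 253, 283 and 1095.5 CPM. So LNP-Gsdme 1 and 2 were far below LNP-Gsdme 3, and the spread within LNP-Gsdme (544 ± 478 CPM, SD, n = 3) exceeded that of any other tested mitochondrial gene relative to its mean. The log2 fold change by edgeR was -1.54 ± 0.57 (adjusted p = 0.123), and without LNP-Gsdme 3 it was -2.56 (adjusted p = 0.00319). The ratio of mt-Atp6 to mt-Atp8 counts was 3.23, 3.04 and 3.18 in LNP-GFP and 0.891, 1.02 and 3.06 in LNP-Gsdme. These genes overlap on the same strand and, as background, are known to be carried on 1 shared mRNA. The counts of mt-Atp6 itself were 33567, 37036 and 31669 in LNP-GFP and 4498, 4537 and 21257 in LNP-Gsdme.

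The identical nuclear copy Gm10925 had 4930, 6032 and 4788 counts in LNP-GFP and 2249, 4634 and 3444 in LNP-Gsdme, which as a percent of mt-Atp6 was 14.7, 16.3 and 15.1% against 50, 102 and 16.2%. Summed with its copy, mt-Atp6 had 38497, 43068 and 36457 counts in LNP-GFP and 6747, 9171 and 24701 in LNP-Gsdme. With all copies added to their sources the log2 fold change of mt-Atp6 by edgeR was -1.30 (adjusted p = 0.0913), and 14 of 22 mitochondrial genes were again called. The share of mitochondrial counts without mt-Atp6 was 2.04 ± 0.19% in LNP-GFP and 1.36 ± 0.12% in LNP-Gsdme (SD, n = 3 each), so the lower share was present without this gene.

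In LNP-Gsdme 2, some other copies were high against their sources. Gm28437 was at 13.1, 12.5 and 12.3% of mt-Co3 in LNP-GFP and at 12.1, 28.4 and 12.9% in LNP-Gsdme. Gm28661 was at 13.01, 12.8 and 12.7% of mt-Co2 against 12.99, 21.5 and 13.2%, and Gm28438 at 12.2, 11.6 and 10.8% of mt-Nd3 against 10.4, 18.8 and 13.5%. Here the sources were not low in LNP-Gsdme 2, unlike mt-Atp6: mt-Co3 was at its highest of the LNP-Gsdme group there (997 CPM), and Gm28437 was at 283 CPM there against 103 to 212 CPM in the other 5 libraries. For Gm10222 (10.8 to 13.5% of mt-Nd4l) the groups overlapped and LNP-Gsdme 2 was near LNP-Gsdme 3. Of the 9 copies, 3 fell by edgeR (Gm10222, Gm28439 and Gm13340; 0 of the 9 without LNP-GFP 3), and the median log2 fold change of the 9 was -0.56. Among protein-coding genes with an aligned nuclear copy 6 of 7 fell, with a median of -0.94. Among those without an aligned copy, 6 of 6 fell, with a median of -0.88; of these, mt-Nd2 and mt-Nd5 share some stretches of 50 bases with nuclear transcripts (8.19 and 7.61%) and the other 4 none.

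**Figure D2:**
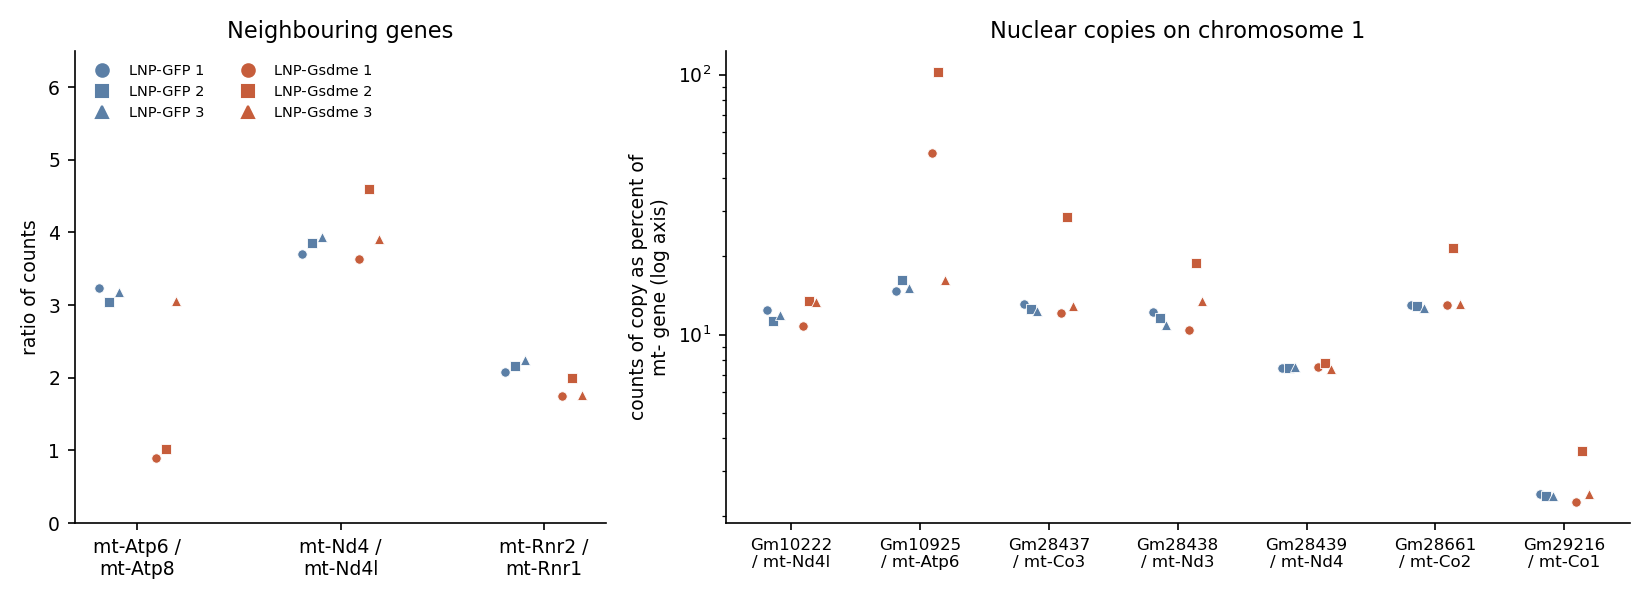
Left, ratio of the counts of neighbouring genes per library; right, counts of each nuclear copy on chromosome 1 as a percent of its mitochondrial source, on a log axis. Blue symbols are LNP-GFP and orange symbols LNP-Gsdme libraries; LNP-Gsdme 1 and 2 stand apart for mt-Atp6 (ratios 0.891 and 1.02, and 50 and 102% for Gm10925), and LNP-Gsdme 2 also for Gm28437, Gm28438, Gm28661 and Gm29216.

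The 2 ribosomal RNAs were not called. Counts of mt-Rnr1 (ENSMUSG00000064337), the RNA of the small mitochondrial ribosomal subunit, were at 1031, 1249 and 1055 CPM in LNP-GFP and 1104, 825 and 1143 CPM in LNP-Gsdme. The groups overlapped, and only LNP-Gsdme 2 was below every LNP-GFP library. The log2 fold change by edgeR was -0.12 ± 0.15 (adjusted p = 0.608), and it was 0.019 without LNP-Gsdme 2. The RNA of the large subunit, mt-Rnr2, was at 2138, 2709 and 2376 CPM against 1933, 1651 and 2013 CPM, so the groups did not overlap, and edgeR gave -0.37 ± 0.12 (adjusted p = 0.0914). DESeq2 called mt-Rnr2 (adjusted p = 0.0411), the only alternative of 17 that did. The ratio of mt-Rnr2 to mt-Rnr1 counts was 2.07, 2.17 and 2.25 in LNP-GFP and 1.75, 2.002 and 1.76 in LNP-Gsdme, without overlap (exact permutation p = 0.1).

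Among tRNAs 2 of the 7 tested fell, and the 7 had a median log2 fold change of -0.80. The leucine tRNA mt-Tl1, which lies between mt-Rnr2 and mt-Nd1, held most tRNA counts (61.4 to 65.2% per library). It was at 20.3, 19.2 and 18.5 CPM in LNP-GFP and 11.1, 10.7 and 12.7 CPM in LNP-Gsdme, a log2 fold change by edgeR of -0.75 ± 0.11 (adjusted p = 0.0135). The methionine tRNA mt-Tm was at 1.35, 1.88 and 1.55 CPM against 0.730, 0.499 and 0.722 CPM, with -1.28 ± 0.26 by edgeR (adjusted p = 0.0316). Calls of both were lost in edgeR without LNP-GFP 3, LNP-Gsdme 1 or LNP-Gsdme 2 (adjusted p = 0.0695 to 0.125), and that of mt-Tm without LNP-GFP 2 (0.0811). With the replicate number as a block, mt-Tl1 and mt-Tm were not called either (edgeR adjusted p = 0.0674 and 0.0975).

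For the other 5 tested tRNAs the log2 fold changes ran from -0.94 (mt-Tg) to -0.64 (mt-Tw), their SE was 0.25 to 0.30, and none passed (edgeR adjusted p = 0.0654 to 0.152). These changes are of the size seen in protein-coding genes, and the counts behind them are small: 4 to 14 per library for mt-Tg, and 18 to 51 for mt-Tw. The groups did not overlap for any of the 7. Of the 15 tRNAs below the filter, with 0 to 13 counts per library, 13 had a lower mean CPM in LNP-Gsdme and 2, the phenylalanine tRNA mt-Tf and the tyrosine tRNA mt-Ty, had a higher one. The histidine tRNA mt-Th had 0 counts in LNP-Gsdme 3 (3 counts, 0.160 CPM, is the limit that a count of 0 allows) and the serine tRNA mt-Ts2 in LNP-Gsdme 2 and 3. Summed over all 22 tRNAs the counts were 715, 681 and 602 in LNP-GFP and 315, 280 and 378 in LNP-Gsdme, or 0.00305 ± 0.00007% and 0.00184 ± 0.00015% of all counts.

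**Figure D3:**
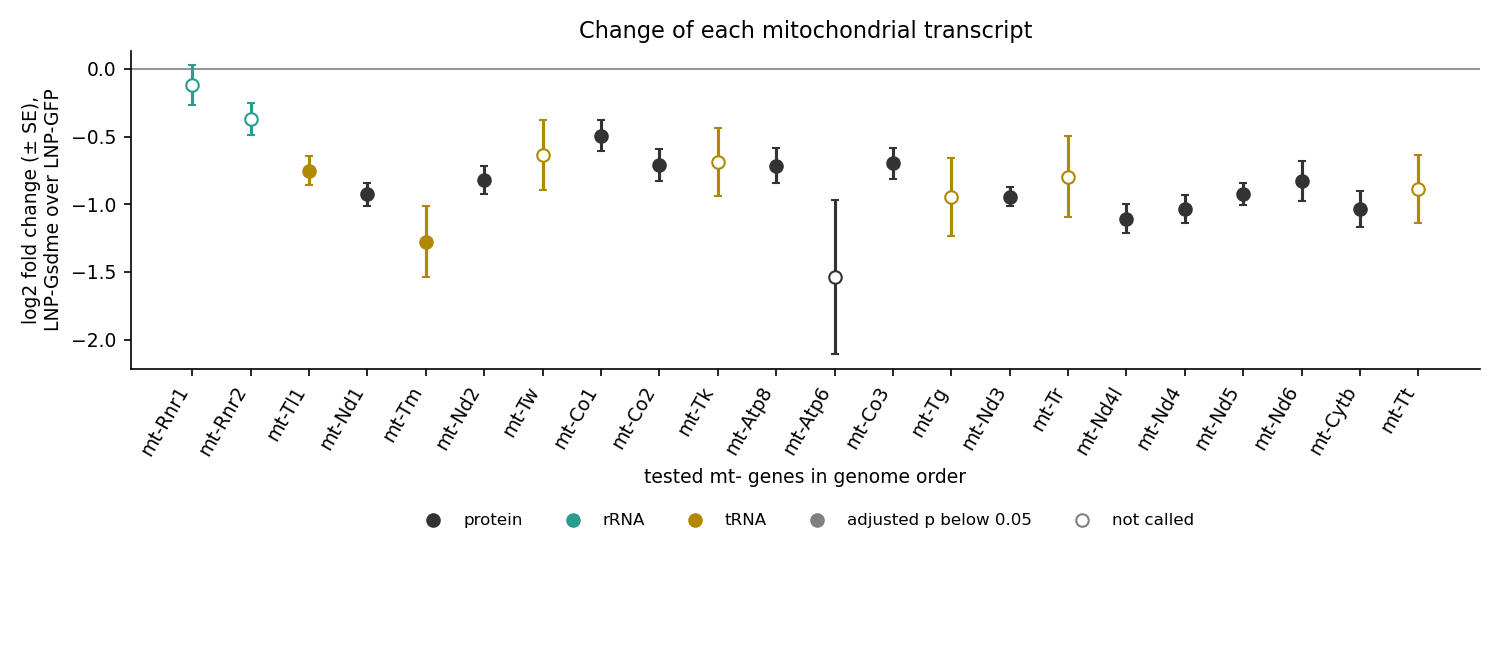
Log2 fold change (LNP-Gsdme over LNP-GFP) with its standard error for the 22 tested mitochondrial genes in genome order, coloured by class. Filled points passed an adjusted p of 0.05 in edgeR; the rRNAs lie nearest to 0 (-0.12 and -0.37) and mt-Atp6 has the widest error (-1.54 ± 0.57).

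Classes were then compared within each library, where the library's scaling cancels. The ratio of rRNA to protein-coding counts was 0.187, 0.191 and 0.186 in LNP-GFP and 0.299, 0.231 and 0.255 in LNP-Gsdme. The LNP-GFP libraries were nearly equal and every LNP-Gsdme library was higher, a mean log2 difference of 0.47 (exact permutation p = 0.1, adjusted p = 0.3 over the 3 class and strand ratios). As a share of mitochondrial counts, rRNA went from 15.8 ± 0.2% to 20.7 ± 2.2% (SD, n = 3 each). For tRNA against protein-coding counts the groups overlapped: there were 544, 663 and 615 protein-coding counts per tRNA count in LNP-GFP and 574, 614 and 634 in LNP-Gsdme, and the log2 ratio of tRNA to protein-coding counts differed by -0.004, or by -0.07 to 0.07 with 1 library left out (exact permutation p = 1.0, adjusted p = 1.0). Only the smallest p of this design, 0.1, was reached for the rRNA ratio, so no class difference could have passed 0.05. Without mt-Atp6 the log2 differences were 0.41 for rRNA and -0.06 for tRNA.

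Between the strands no difference beyond the spread of the libraries was measured. The minus strand carries mt-Nd6 and 8 tRNA genes, and mt-Nd6 (ENSMUSG00000064368), the complex I subunit encoded opposite to the rest, was the only one of them with enough counts to test. It was at 28.4, 28.99 and 30.7 CPM in LNP-GFP and 15.2, 20.3 and 14.1 CPM in LNP-Gsdme, and edgeR gave -0.83 ± 0.15 (adjusted p = 0.0230). The 12 protein-coding genes of the plus strand had a median log2 fold change of -0.93, and 11 of them fell. The call of mt-Nd6 was lost in edgeR when LNP-GFP 3 (adjusted p = 0.110) or LNP-Gsdme 1 (0.1002) was left out. It was also lost with the replicate number as a block.

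Counted over all genes, the plus strand had 668, 798 and 666 counts for each minus-strand count in LNP-GFP and 821, 611 and 1024 in LNP-Gsdme. These ranges overlapped, and the log2 difference of the minus to plus ratio was -0.18 (exact permutation p = 0.6, adjusted p = 0.9; -0.23 without mt-Atp6). It was -0.37 without LNP-Gsdme 2 and -0.00078 without LNP-Gsdme 3. With protein-coding genes alone, mt-Nd6 against the other 12, the log2 difference was -0.09 (exact permutation p = 0.8). The 8 minus-strand tRNAs summed to 39, 41 and 45 counts in LNP-GFP and 16, 21 and 20 in LNP-Gsdme, and the 14 plus-strand tRNAs to 676, 640 and 557 against 299, 259 and 358. Both sums were lower in every LNP-Gsdme library. The strand here is that of the gene: whether the counting used the strand of the read was not given in the sources used here, and without it reads from a gene and from the RNA opposite to it cannot be told apart.

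**Figure D4:**
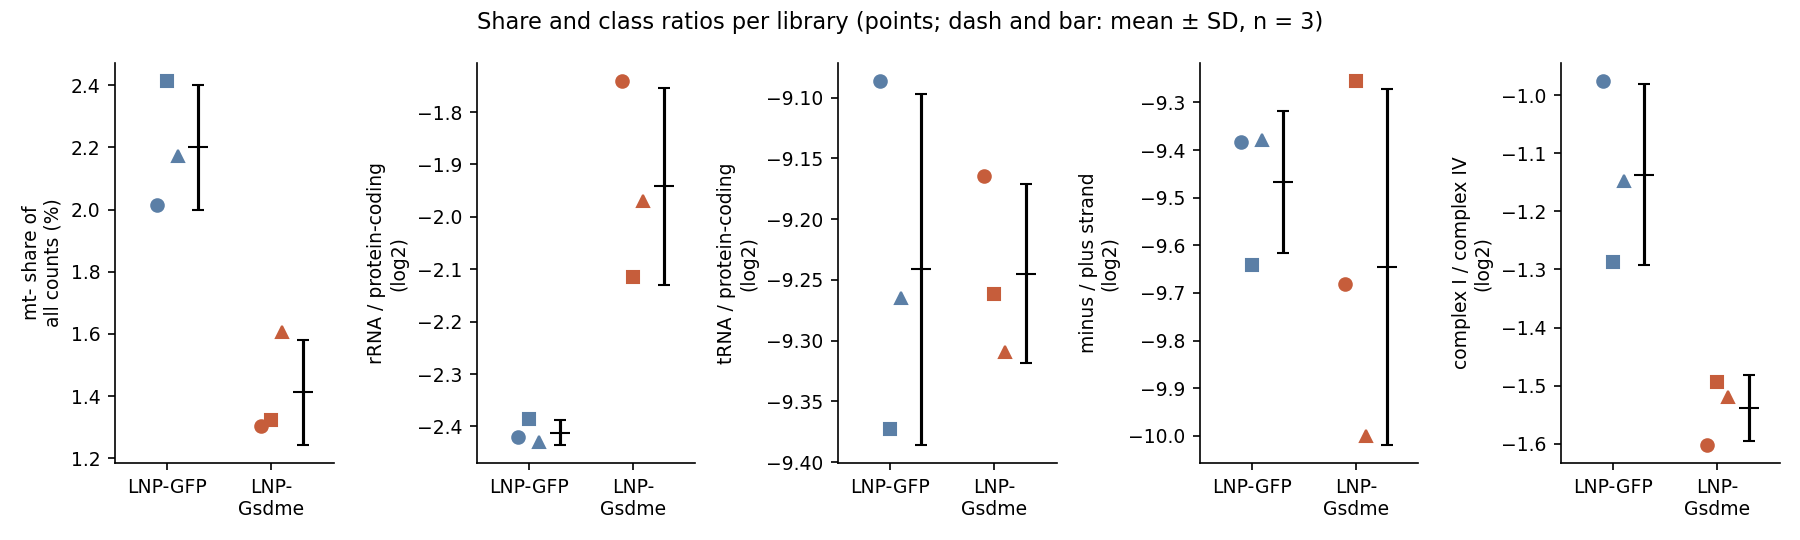
From left to right, the mitochondrial share of all counts in percent, and the log2 ratios of rRNA to protein-coding, tRNA to protein-coding, minus-strand to plus-strand and complex I to complex IV counts, per library. Points are libraries and the dash with its bar is the mean ± SD (n = 3); the groups separate for the share, for rRNA to protein-coding and for complex I to complex IV, and overlap for tRNA to protein-coding and for the strands.

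Within the protein-coding class the make-up differed as well. Complex IV genes held 53.4, 57.3 and 55.5% of mitochondrial protein-coding counts in LNP-GFP and 66.5, 64.6 and 60.4% in LNP-Gsdme. Of this, mt-Co1 alone held 35.6, 38.6 and 37.2% against 47.5, 44.9 and 42.3%. Complex I genes held 27.2, 23.5 and 25.0% against 21.9, 22.96 and 21.04%. In each of these shares the groups were apart. The ratio of complex I to complex IV counts was 0.508, 0.410 and 0.451 in LNP-GFP and 0.329, 0.355 and 0.349 in LNP-Gsdme, a log2 difference of -0.40 (exact permutation p = 0.1; this ratio was added after the values had been seen). The share of complex V followed mt-Atp6: it was 10.9 to 11.3% in LNP-GFP, 5.28 and 5.23% in LNP-Gsdme 1 and 2, and 11.8% in LNP-Gsdme 3.

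Levels of different genes can be set side by side only per length, for which the deposited FPKM, which are scaled to gene length and library total, were used. In LNP-GFP the order of mean FPKM among the 15 protein-coding and rRNA genes began with mt-Co1 (4459 ± 576, SD, n = 3), mt-Co2 (2767 ± 297), mt-Atp8 (2435 ± 227) and mt-Atp6 (2295 ± 143). It ended with mt-Nd5 (632 ± 12), mt-Nd2 (581 ± 32), mt-Nd3 (338 ± 6.2) and mt-Nd6 (56.0 ± 2.2). The ranges of the libraries overlapped between neighbours from mt-Co2 to mt-Atp6 and from mt-Co3 to mt-Nd4l, while mt-Co1 at the top and each gene from mt-Nd4 down stood apart.

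In LNP-Gsdme mt-Co1 again led (3234 ± 230 FPKM), followed by mt-Co2 (1731 ± 228) and mt-Atp8 (1518 ± 257), and mt-Nd6 was again last (32.1 ± 6.2). In the order of mean FPKM, mt-Rnr2 was at place 6 in LNP-GFP (1504 ± 163) and at place 4 in LNP-Gsdme (1190 ± 136), mt-Rnr1 at place 9 (1151 ± 112) and at place 6 (1082 ± 194), and mt-Atp6 at place 4 and at place 7 (816 ± 735). Of the others, mt-Cytb and mt-Nd1 were each 1 place lower in LNP-Gsdme. In LNP-Gsdme the libraries' ranges overlapped from neighbour to neighbour all the way from mt-Rnr2 to mt-Nd4. The order of neighbours among these 8 genes, mt-Atp6 included, is therefore not resolved there. Genes further apart could be separated: every LNP-Gsdme value of mt-Rnr2, mt-Co3 and mt-Rnr1 lay above every one of mt-Cytb, mt-Nd1, mt-Nd4l and mt-Nd4.

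Few nuclear genes of the same complexes were called. Over all genes tested, edgeR called 6.30% higher and 5.32% lower, and DESeq2 called 1475 higher and 1522 lower of 15192. The share of all genes at an unadjusted p below 0.05 is not given here, so such counts below have no background beside them. Of 36 nuclear subunits of complex I none was called by edgeR (2 higher and 5 lower at an unadjusted p below 0.05; DESeq2 called 1 in each direction), and their median log2 fold change was -0.03 against -0.93 for the 7 mitochondrial ones. The smallest p-values were those of Ndufs7 (0.47, edgeR adjusted p = 0.0530) and Ndufs1 (-0.33, edgeR adjusted p = 0.0570), both subunits with iron-sulphur clusters. All 4 subunits of complex II, which is wholly nuclear, lay between -0.13 (Sdhb) and 0.02 (Sdhc), and none was called or had an unadjusted p below 0.05 in edgeR. The 9 nuclear subunits of complex III had a median of -0.13 and the 12 of complex IV a median of -0.08. None of these was called by edgeR (0 higher and 3 lower, and 0 higher and 2 lower, at an unadjusted p below 0.05), and DESeq2 called 1 lower in complex III and none in complex IV. Of 17 nuclear subunits of complex V 1 fell, the catalytic subunit Atp5b (728, 788 and 766 CPM against 593, 579 and 614 CPM; -0.35 ± 0.07, edgeR adjusted p = 0.0276), and the median was -0.08 (0 higher and 4 lower at an unadjusted p below 0.05; DESeq2 called 2 lower). Summed levels of the nuclear subunits overlapped for complexes I and II. They were lower in LNP-Gsdme without overlap for complex III (648 to 684 against 616 to 647 CPM) and complex IV (1089.6 to 1151 against 1070.1 to 1086 CPM). The same held for complex V (2325 to 2445 against 2089 to 2206 CPM). Such sums weigh abundant genes most. In complex V these were Atp5b (means of 761 and 595 CPM) and Atp5a1 (541 and 463 CPM). In complex IV the most abundant was Cox4i1 (206 and 169 CPM, edgeR adjusted p = 0.219). Among all single genes tested, 18.2% were lower without overlap. No such share was taken for sums, here or below.

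**Figure D5:**
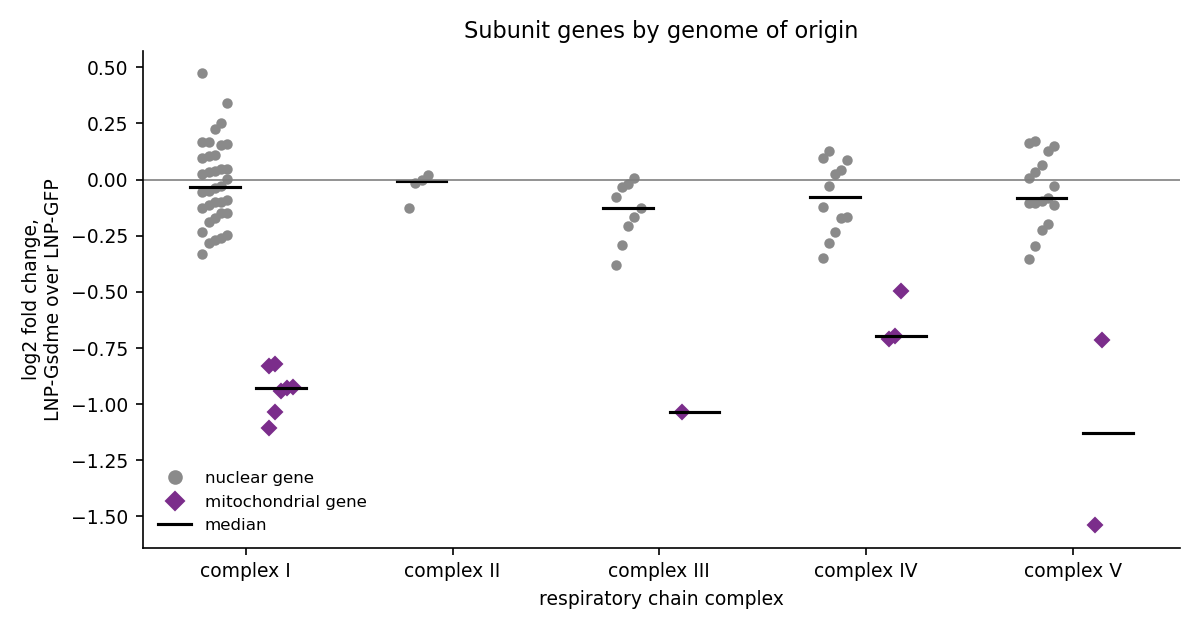
Log2 fold change (LNP-Gsdme over LNP-GFP) of each tested subunit gene of the respiratory complexes, by genome of origin. Grey circles are nuclear genes and purple diamonds mitochondrial genes, and bars are medians; the nuclear medians lie between -0.13 and -0.01 and the mitochondrial medians between -1.13 and -0.70.

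No gene of the list for transcribing and maintaining mitochondrial DNA was called lower. Summed, the genes of this list were at 145.9 to 152.1 CPM in LNP-GFP and 152.9 to 162.7 CPM in LNP-Gsdme. The LNP-Gsdme sums were higher without overlap, but the nearest libraries were close. Among all single genes tested, 19.6% were higher without overlap. Of 17, among them the polymerase Polrmt and the DNA-packaging factor Tfam, none was called by edgeR or DESeq2 (2 higher and 0 lower at an unadjusted p below 0.05), and the median log2 fold change was 0.09. Tfam was at 25.8, 24.7 and 21.5 CPM in LNP-GFP and 21.6, 21.9 and 25.1 CPM in LNP-Gsdme (-0.07 ± 0.11, edgeR adjusted p = 0.696), with overlapping groups. The DNA polymerase Polg was at -0.03 ± 0.09 and the termination-family factor Mterf3 at 0.05 ± 0.10 in edgeR's fit (adjusted p = 0.849 and 0.724). The elongation factor Tefm was at 4.27, 4.63 and 3.85 CPM against 5.84, 7.36 and 5.88 CPM (0.58 ± 0.16), which did not pass (edgeR adjusted p = 0.0618), nor did Mterf1b (0.82 ± 0.25, adjusted p = 0.0786).

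Of 29 genes for cutting, modifying and stabilising mitochondrial RNA, 3 rose and none fell in edgeR, against 6.30% and 5.32% of all genes tested. At an unadjusted p below 0.05 in edgeR 5 were higher and 0 lower. DESeq2 called 4 higher, against 1475 of 15192 genes, and the median was 0.05. Those that rose were Gtpbp3, a tRNA-modifying GTPase (0.78 ± 0.12, edgeR adjusted p = 0.0177), Mrm1, a methyltransferase of the large rRNA (0.80 ± 0.16, edgeR adjusted p = 0.0293), and Ptcd2, a pentatricopeptide protein (0.46). The 3 most abundant of the list were not called: Grsf1, a protein of mitochondrial RNA granules, was at -0.20 ± 0.10, the exonuclease Rexo2 at 0.16 ± 0.09 and Tbrg4 at 0.03 ± 0.10 (edgeR adjusted p = 0.235, 0.270 and 0.871). The 29 genes summed to 545 to 551 CPM in LNP-GFP and 577 to 607 CPM in LNP-Gsdme, higher without overlap. None of the 19 mitochondrial aminoacyl-tRNA synthetases was called by edgeR or DESeq2 (2 higher and 1 lower at an unadjusted p below 0.05), with a median of 0.11.

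Of 20 genes of the mitochondrial membranes and matrix 1 fell, the chaperone Hspd1 (-0.48 ± 0.11, edgeR adjusted p = 0.0378), and the outer-membrane channel Vdac1 was at -0.33 ± 0.09 (edgeR adjusted p = 0.0642), with a list median of -0.08 (1 higher and 5 lower at an unadjusted p below 0.05; DESeq2 called 2 lower). Of 11 tested regulators of mitochondrial biogenesis 1 rose, the nuclear receptor Esrra (33.7, 31.6 and 33.9 CPM against 52.8, 48.6 and 48.8 CPM; 0.60 ± 0.08, edgeR adjusted p = 0.0104), with 4 higher and 1 lower at an unadjusted p below 0.05 and 1 called in each direction by DESeq2. Of 10 tested mitophagy genes none was called by edgeR (0 higher and 4 lower at an unadjusted p below 0.05; DESeq2 called 1 lower), Sqstm1 being at -0.65 ± 0.19 (edgeR adjusted p = 0.0732). The mitophagy list summed to 2435 to 3474 CPM in LNP-GFP against 2319.6 to 2414 CPM, without overlap. Most of this sum was Sqstm1 (1511 to 2570 CPM in LNP-GFP and 1273 to 1420 CPM in LNP-Gsdme). The median log2 fold change of the list was 0.02. Each of the 6 calls in these nuclear lists was lost in edgeR without LNP-GFP 3, LNP-Gsdme 1 or LNP-Gsdme 2 (adjusted p = 0.0526 to 0.151). Some were also lost without LNP-GFP 2 or LNP-Gsdme 3. With the replicate number as a block none of the 6 was called (edgeR adjusted p = 0.0615 to 0.101).

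Summed markers of some other cell types, but not of all, differed between the groups without overlap. The summed level of 9 fibroblast markers was 9191 to 9960 CPM after LNP-GFP and 2296 to 5940 CPM after LNP-Gsdme, and 5 of the 9 fell (0 without LNP-GFP 3). None of the listed markers of fibroblasts, melanoma cells, NK cells or monocytes was at 0 counts in all 6 libraries. Within LNP-Gsdme, library 3 had the highest fibroblast sum (5940 CPM against 3043 and 2296 CPM), the highest mitochondrial share (1.61%) and the highest mt-Atp6. The other 2 libraries did not keep this order. LNP-Gsdme 1 had a higher fibroblast sum than LNP-Gsdme 2, but a lower share (1.30 against 1.32%) and lower mt-Atp6 (253 against 283 CPM). LNP-Gsdme 3 also had the highest sums of melanoma (750 CPM against 122 and 171 CPM), erythroid, endothelial and platelet markers. Its sums were the lowest of the group for the other listed cell types, monocytes and macrophages included (9543 CPM). The 11 monocyte and macrophage markers summed to 10709.8 to 12522 CPM against 9543 to 11513 CPM, with overlap. The 7 melanoma markers summed to 324 to 1714 CPM against 122 to 750 CPM, with overlap, and the 6 NK cell markers to 34.4 to 125 CPM against 135 to 177 CPM. Sums of dendritic cell markers (121 to 158 CPM against 69.7 to 104 CPM), endothelial markers (264 to 311 CPM against 204 to 262 CPM) and platelet markers (163 to 203 CPM against 102 to 140.5 CPM) were also lower without overlap, and those of T cells, B cells, neutrophils and erythroid cells overlapped. The part of these cells in the lower mitochondrial transcripts was not tested.

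The 4 nuclear-retained RNAs of the list summed to 360.4 to 496 CPM after LNP-GFP and 711 to 782 CPM after LNP-Gsdme, most of it Malat1 (388 ± 60 and 710 ± 25 CPM, SD, n = 3 each), while the median log2 fold change of the 4 was -0.42. Malat1 rose (0.87 ± 0.12, edgeR adjusted p = 0.0129) and Kcnq1ot1 fell (-0.83 ± 0.20, edgeR adjusted p = 0.0460), while Meg3 (-0.999, edgeR adjusted p = 0.0784) and Neat1 (0.003, adjusted p = 0.996) did not pass. Both calls were lost in edgeR without LNP-GFP 3, LNP-Gsdme 1 or LNP-Gsdme 2 (adjusted p = 0.0625 to 0.149). That of Kcnq1ot1 was also lost without LNP-GFP 2 (edgeR adjusted p = 0.0933) or LNP-Gsdme 3 (0.0832). With the replicate number as a block, Malat1 and Kcnq1ot1 were not called (edgeR adjusted p = 0.0588 and 0.105). RNAs without a poly(A) tail, 8 in the list, summed to 44.5 to 61.2 CPM against 24.8 to 67.1 CPM, with overlap, and none of the 5 tested was called by edgeR or DESeq2 or had an unadjusted p below 0.05. The part of RNA quality in the result was not tested.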

How the data were processed

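RNA-seq of 6 libraries was used, 3 LNP-GFP and 3 LNP-Gsdme, grouped by the treatment label and numbered by the titles. Per the labels' protocols, column-purified, DNase-treated RNA was made into paired-end TruSeq libraries. The authors deposited 1 table with raw counts and FPKM per gene and library, per the file headers, on GRCm39 per the submitters' processing notes; the aligner, counter, strand setting, annotation release and any poly(A) selection were not given in the sources used here. The deposited FPKM values were used only to order levels between genes.

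Counts were tested in R 4.3.3 with edgeR 4.0.16: filterByExpr by group (16010 genes kept), TMM factors (0.980 to 1.04), robust quasi-likelihood test, Benjamini-Hochberg adjustment over all genes, called below 0.05. The biological coefficient of variation was 0.193. Tested on simulated data for this comparison, with 200 of 16010 genes changed by 1 on the log2 scale, 78% were recovered, with 10 false calls. The changed genes were drawn from above a CPM cut, and all genes had the same dispersion in independent libraries. That recovery therefore does not carry over to the low-count tRNAs, to mt-Atp6 or to libraries that are not independent. CPM of tested genes use TMM-scaled totals; CPM of gate genes and list sums use library totals. At this depth 3 counts equal 0.160 to 0.188 CPM in the libraries with a 0, and this limit covers counting error only. Shares and ratios per library were compared with exact permutation tests over 20 assignments. Copies were aligned with Biopython 1.88.

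Members and lists were chosen with earlier results of these data known. All mitochondrial genes could be named. From each nuclear list the 2 members with the smallest p, and for transcription and RNA processing the 3 most abundant, were named. Polrmt, Ptcd2, Atp5a1, Cox4i1, the gate genes, Meg3, Neat1 and Gm13340 fall outside that rule and were named after their values were seen. Alternatives were other scalings, filters, DESeq2 1.42.0, limma-voom (limma 3.58.1), no robust fitting, a replicate block and each library left out; the counts with nuclear copies added were chosen after seeing the data.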

Additional observations from a re-analysis of the deposited data

How the results depend on the processing

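Over the alternatives for single genes, 330 of 369 values kept the direction and the side of the threshold of the reported value, 36 lost the call, 2 gained one (mt-Rnr2 with DESeq2, mt-Atp6 without LNP-Gsdme 3) and 1 reversed, mt-Rnr1, whose log2 fold change ran from -0.20 to 0.019 with 1 library left out (0.019 without LNP-Gsdme 2). Of the 14 called genes 4 were called in all 17 alternatives, and 21 of 22 tested genes were below 0 in all of them. Leaving out 1 library gave 4 to 14 called mitochondrial genes (4 without LNP-GFP 3, 7 without LNP-Gsdme 1 or 2, 11 without LNP-GFP 2) and 88 to 2841 called genes over the table; DESeq2 called 2997. The ratio of rRNA to protein-coding counts, 0.47 on the log2 scale, was 0.69 as a difference of mean log2 CPM and 0.63 with mt-Rnr1 alone. The log2 difference of the mitochondrial share was -0.64, and -0.74 to -0.57 with 1 library left out. With the replicate number as a block, 6 mitochondrial genes and 155 genes in all were called. Whether the numbers pair the libraries is not settled. Deviations of same-numbered libraries correlated at 0.21, -0.24 and 0.03 across genes, and not every library correlated best with its own number. Each deviation was taken from the mean of its group of 3, so such correlations cannot decide on a pairing. Low counts limit the tRNAs, most of all those under 50 counts per library, and with 3 libraries against 3 no ratio could reach a p below 0.1. The causes were not tested.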
